A study of Mus musculus with 6 samples.

Results

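Gq-coupled receptors for transmitters and peptides were chosen as a list of 10 genes and looked up by symbol in a table of 16547 genes, and 9 of the 10 had a row: Chrm3, Avpr1b, Casr, Gpr39, P2ry1, P2ry6, Htr2b, Cckar and Ednra. No row carried the symbol Brs3, so that receptor was not analysed here. The RNA came from isolated pancreatic islets of C57BL/6 mice, 11 to 12 weeks old, and 2 groups of 3 libraries were sequenced. The control group (WT, Kcnj11 fl/fl) carried the floxed Kcnj11 gene with no deletion, and the knockout group (bKO, βKcnj11 -/-) lacked Kcnj11 in beta cells. Kcnj11 encodes the pore-forming subunit of ATP-sensitive potassium channels, whose closing as glucose is metabolised lets the beta cell depolarise. The driver of the deletion is not given in the sources used here, and islets were cultured for 2 days in RPMI medium before RNA was taken.

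Receptors of the Gq class activate phospholipase C beta, which splits a membrane lipid into inositol trisphosphate and diacylglycerol. Inositol trisphosphate releases calcium from the endoplasmic reticulum and diacylglycerol activates protein kinase C, and in beta cells both amplify insulin secretion that glucose has started. Acetylcholine from nerves or neighbouring islet cells, acting on the muscarinic receptor Chrm3, is the best known of these inputs.

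The values were FPKM, fragments scaled by transcript length and library depth, so that levels may be set side by side between genes. Values of a group are given below in the order of its replicates 1, 2 and 3. Kcnj11, the targeted gene, was at 19.7, 24.7 and 25.4 FPKM in the WT libraries against 3.45, 5.31 and 3.51 FPKM in the bKO libraries, which fits the labels. The steps between low FPKM values put the depth at about 23.6 (in units of 1000000 fragments) for the shallowest library, WT replicate 1, and 40.4 for the deepest, bKO replicate 2. Insulin genes took 29.8% to 37.4% of all FPKM in WT and 26.4% to 33.5% in bKO. The profiles of bKO replicates 1 and 3 were the closest of all 15 pairs, with Pearson's r of 0.9986 across genes, where the others had 0.9816 to 0.9956, and WT replicate 1 stood apart with the lowest acinar content. The labels do not say that libraries came from separate animals, so p-values measure the spread between these libraries, which may in part be technical. Results are therefore also given with bKO replicates 1 and 3 averaged as 1 sample. In a mixed tissue, fewer cells of a type and less RNA per cell cannot be told apart.

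The upstream sequences of the 3 receptors with the smallest unadjusted p are shown so that the genes discussed most can be seen beside their values. Each is the 250 bases before the annotated gene start, 5′ to 3′ on the gene's strand, from RefSeq on GRCm38.p6, a build other than the mm9 of the deposited values. The windows are chr3:61002535-61002784 on the plus strand for P2ry1, chr13:10360804-10361053 on the minus strand for Chrm3 and chr8:77724453-77724702 on the minus strand for Ednra. Capitals mark the GC box GGGCGG or its reverse complement.

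P2ry1: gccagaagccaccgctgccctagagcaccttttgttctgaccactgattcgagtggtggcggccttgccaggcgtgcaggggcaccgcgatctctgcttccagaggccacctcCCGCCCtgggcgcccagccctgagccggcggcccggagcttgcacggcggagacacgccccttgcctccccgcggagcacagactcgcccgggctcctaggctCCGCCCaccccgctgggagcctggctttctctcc
Chrm3: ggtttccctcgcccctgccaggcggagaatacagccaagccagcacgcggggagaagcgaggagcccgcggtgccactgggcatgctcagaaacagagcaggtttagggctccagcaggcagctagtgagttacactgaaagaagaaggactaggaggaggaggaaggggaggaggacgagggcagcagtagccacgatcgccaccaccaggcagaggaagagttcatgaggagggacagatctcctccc
Ednra: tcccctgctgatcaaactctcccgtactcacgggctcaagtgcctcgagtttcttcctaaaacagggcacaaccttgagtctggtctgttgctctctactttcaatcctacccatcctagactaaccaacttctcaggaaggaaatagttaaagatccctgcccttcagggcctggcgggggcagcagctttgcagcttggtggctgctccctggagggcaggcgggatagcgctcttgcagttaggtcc

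The P2ry1 window was 70.8% G and C with 20 CpG dinucleotides, and the median over all 32851 windows of this length was 52.4% with 6. Chrm3 was at 61.2% with 10 CpG and Ednra at 54.8% with 6. P2ry1 held 2 GC boxes, a motif found on either strand in 32.7% of all windows, and Chrm3 and Ednra held 0. The cyclic AMP response element TGACGTCA, the AP-1 site TGACTCA and the TATA box TATAAA, searched on both strands, had 0 matches in each of the 3 windows. They were present in 1.55%, 4.46% and 12.4% of all windows. A match of letters is a description only, and none of the libraries measured binding.

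The 9 receptors were expressed at low to middle levels. In WT islets the mean levels ran from Casr, at 10.3 FPKM, through Chrm3 at 8.60, Gpr39 at 5.92, P2ry6 at 5.25, P2ry1 at 4.74, Ednra at 3.65, Cckar at 2.08 and Avpr1b at 1.78 to Htr2b at 1.12 FPKM. Casr lay at the 62.3 percentile of all genes by WT mean and Htr2b at the 24.9 percentile. In that order the WT ranges of neighbouring genes overlapped for every pair but Chrm3 and Gpr39, so the order of such neighbours is not fixed by these libraries. Some genes further apart in it, such as Gpr39 and P2ry1 or P2ry1 and Avpr1b, had separate ranges. Others, such as P2ry6 and Ednra or Cckar and Htr2b, still overlapped. In bKO islets the ends of the order were the same genes, Casr at 10.5 FPKM and Htr2b at 1.09 FPKM. P2ry1 stood above Ednra and Cckar in WT and below both in bKO, and the ranges of P2ry1 and Ednra did not overlap in bKO, where Ednra was at 4.41 to 5.23 FPKM and P2ry1 at 2.86 to 3.58. The summed level of the 9 receptors was 40.2 to 47.4 FPKM in WT libraries and 42.1 to 43.3 FPKM in bKO libraries.

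**Figure D1:**
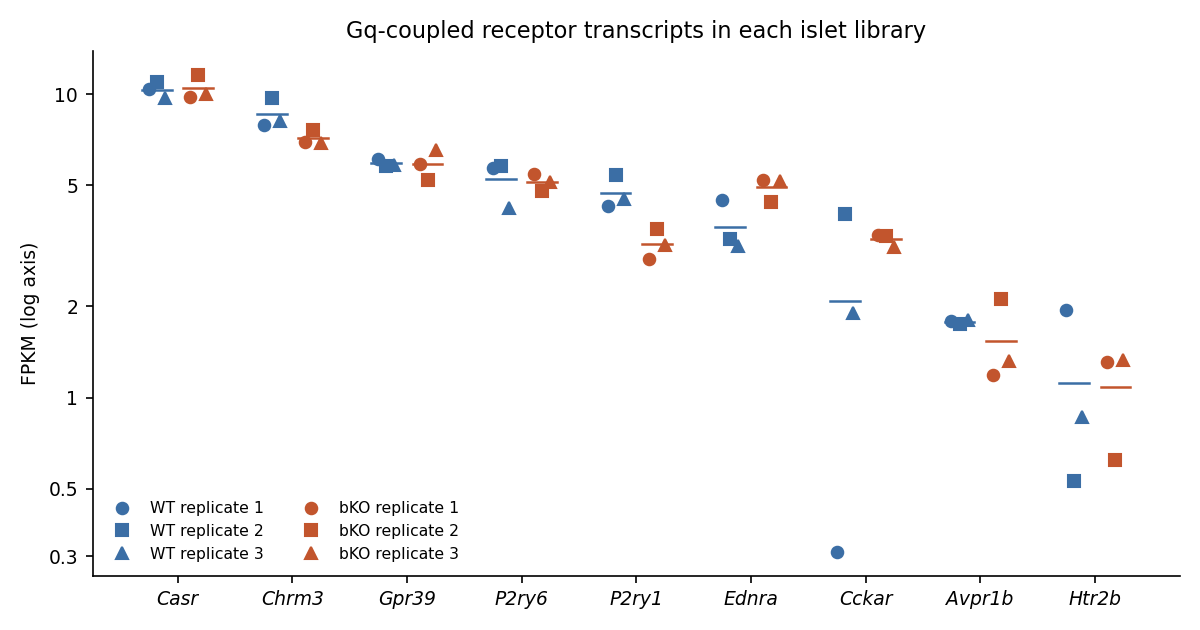
FPKM (log axis) of the 9 receptors in each of the 3 WT (blue) and 3 bKO (orange) libraries, with a symbol for each replicate number and a line at each group mean. P2ry1 and Chrm3 are the receptors whose WT and bKO points do not overlap, and Cckar in WT replicate 1 lies far below its other points.

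Setting bKO beside WT islets addresses which of these receptor transcripts change when beta cells lose the channel. No receptor passed the threshold, an adjusted p below 0.05 in limma over 15962 genes, where 0.194% of all genes passed (31 genes). At an unadjusted p below 0.05 there were 2 of 9, P2ry1 and Chrm3, against 14.2% of all genes. The same 2 receptors had FPKM in every bKO library below every WT library, against 6.48% of all genes in that direction on deposited FPKM and 12.6% after quantile normalization. The number with every bKO library above every WT library was 0, against 15.3% and 7.1% of all genes. Differences were negative for 7 of the 9, against 53% of all genes, and their median was -0.09 on the log2 scale against -0.01 over all tested genes. The signs of Casr and Htr2b depended on the scaling. Without quantile normalization both turned to 0.01, and the median over all genes was 0.048. Gpr39 and P2ry6 kept their sign there but lay near 0, at -0.01 and -0.02. In none of the 14 other settings, listed in the closing section, was a receptor called.

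P2ry1, a receptor for ADP, had the smallest p of the 9. The WT libraries held 4.29, 5.41 and 4.52 FPKM of it, and the bKO libraries 2.86, 3.58 and 3.18 FPKM. Every WT library lay above every bKO library, and in both groups replicate 2 was the highest. The mean was 4.74 ± 0.59 FPKM in WT and 3.20 ± 0.36 in bKO (SD, n = 3 each), which is 67.6% of the WT mean. On the scale of log2(FPKM + 1) the difference was -0.53 (SE 0.12, 95% interval -0.81 to -0.25), with an unadjusted p of 0.0031 and an adjusted p of 0.131 in limma, so P2ry1 did not pass. Over the 14 other settings the difference stayed between -0.65 and -0.44 and the limma adjusted p between 0.0978 and 0.488. With bKO replicates 1 and 3 averaged it was -0.49 (limma adjusted p = 0.478). The table lists 2 P2ry1 transcripts under a single value, so they cannot be told apart. For that reason its fragments and counting error were not estimated. P2ry1 also shares exon sequence with Gm37035 on the opposite strand in the GENCODE annotation of GRCm38, and whether fragments were counted by strand is not given in the sources used here.

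Chrm3, the muscarinic acetylcholine receptor of beta cells and of exocrine glands, was at 7.93, 9.72 and 8.14 FPKM in the WT libraries. The bKO libraries held 6.96, 7.59 and 6.89 FPKM. The groups did not overlap, but the gap between the lowest WT and the highest bKO library was smaller than the range of either group. The means were 8.60 ± 0.98 FPKM in WT and 7.15 ± 0.39 in bKO (SD, n = 3 each). The log2 difference was -0.31 (SE 0.09, 95% interval -0.53 to -0.08), with an unadjusted p of 0.0142 and an adjusted p of 0.23 in limma. It stayed between -0.36 and -0.22 over the other settings, and was -0.29 with bKO replicates 1 and 3 averaged (limma adjusted p = 0.645). Chrm3 rested on about 743 to 1253 fragments in each library. The counting intervals of the lowest WT library, 7.38 to 8.51 FPKM, and of the highest bKO library, 7.18 to 8.02 FPKM, overlapped.

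P2ry1 and Chrm3 are expressed by more than 1 islet cell type, and the levels of markers of several cell types differed between libraries. The summed level of 9 beta cell markers was 271101 to 359485 FPKM in WT and 216761 to 293414 in bKO, with the highest bKO value in replicate 2, where P2ry1 and Chrm3 also had their highest bKO values. All 9 beta cell markers had rows, and 0 were at 0 in any library. The beta cell sum is nearly all Ins1, Ins2 and Iapp, whose bKO means were 63.8%, 81.4% and 68.6% of the WT means. The share was 105.6% for Pdx1, 119.3% for Mafa and 95.1% for Nkx6-1. It was 57.8% for Ucn3, 65.8% for G6pc2 and 76.7% for Slc2a2. FPKM did not overlap for 4 of the 9, all lower in bKO, against 6.48% of all genes. The median log2 difference was -0.00, the value of Ins1, Ins2 and Iapp. Quantile normalization evened out these top genes, so that median does not measure beta cell RNA. Before it, the list medians against the WT mean were 0.03, 0.17 and -0.21 in WT. In bKO they were -0.48, -0.08 and -0.48. The summed level of 7 endothelial markers was 108 to 122 FPKM in WT and 156 to 159 FPKM in bKO, and that of 9 macrophage markers 122 to 166 in WT and 106 to 120 in bKO, again with rows for all markers and 0 of them at 0 in any library. The macrophage markers did not move as one. FPKM did not overlap for 3 of the 9, all lower in bKO, against 6.48% of all genes. The log2 difference was negative for 8 and positive for 1. The bKO mean was 99.1% of the WT mean for Csf1r, 97.4% for Itgam and 151.0% for Cd14. The part of these marker shifts in the P2ry1 and Chrm3 values was not tested.

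Casr, the receptor for extracellular calcium, which also couples to other G proteins, was at 10.4, 10.97 and 9.71 FPKM in the WT libraries against 9.81, 11.6 and 10.03 FPKM in the bKO libraries. The groups overlapped throughout, and the log2 difference was -0.06 (95% interval -0.27 to 0.14, limma adjusted p = 0.751). Its sign turned without quantile normalization, where it was 0.01.

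Ratios of 2 receptors within a library do not depend on how libraries are scaled to each other. The ratio of P2ry1 to Casr was 0.414, 0.493 and 0.466 in the WT libraries against 0.291, 0.309 and 0.317 in the bKO libraries. The ratio of Chrm3 to Casr was 0.765, 0.886 and 0.839 in WT and 0.71, 0.655 and 0.687 in bKO. Neither overlapped between the groups. P2ry1 was also lower in bKO relative to Chrm3, with ratios of 0.541, 0.556 and 0.555 in WT and 0.41, 0.471 and 0.462 in bKO. Of the 8 ratios of P2ry1 to another receptor, 6 were lower in every bKO library than in every WT library, and the other two, to Avpr1b and Htr2b, overlapped. Of the 8 ratios of Chrm3, 3 were lower in every bKO library, those to Casr, Cckar and Ednra, 1 was higher, that to P2ry1, and those to Gpr39, P2ry6, Avpr1b and Htr2b overlapped. For Ednra, 4 of 8 were higher in every bKO library, those to Chrm3, Gpr39, P2ry1 and P2ry6, and the rest overlapped. These ratios were chosen after the values were seen, share their genes and are given with no test, and they show unequal levels without saying which of the 2 genes differs. Ratios of other genes were not counted for comparison, so it is not known how common such counts are. Some of the ratios have Cckar or Ednra as the other gene. Acinar marker levels and smooth muscle and pericyte marker levels, given below, differed between libraries, and their part in these ratios was not tested. P2ry1 and Chrm3 themselves did not overlap between the groups, so these counts in part repeat that observation.

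**Figure D2:**
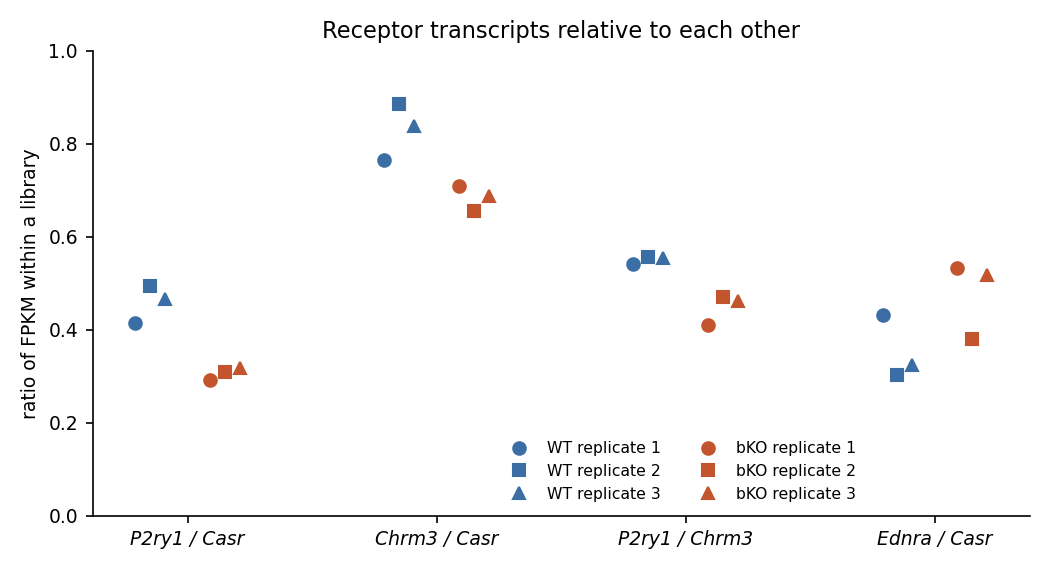
Ratio of FPKM of 2 receptors within each library, with WT in blue, bKO in orange and a symbol for each replicate number. The ratios of P2ry1 to Casr lie between 0.414 and 0.493 in WT and between 0.291 and 0.317 in bKO, while the ratios of Ednra to Casr overlap.

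P2ry6, a receptor for UDP, was at 5.72, 5.80 and 4.23 FPKM in the WT libraries against 5.47, 4.80 and 5.13 FPKM in the bKO libraries. All 3 bKO libraries lay within the WT range. Its log2 difference was -0.10 (95% interval -0.37 to 0.18, limma adjusted p = 0.717), the smaller in size of the 2 nucleotide receptors. Whether P2ry1 and P2ry6 differ in response was not tested, but their ratio, P2ry1 over P2ry6, was 0.75, 0.932 and 1.07 in WT and 0.522, 0.745 and 0.62 in bKO, with WT replicate 1 and bKO replicate 2 nearly touching. P2ry6 is also expressed by macrophages.

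Gpr39, a zinc-sensing receptor, was at 6.10, 5.80 and 5.84 FPKM in the WT libraries against 5.87, 5.22 and 6.57 FPKM in the bKO libraries. The bKO libraries lay on both sides of the narrow WT range. The log2 difference was -0.09 (95% interval -0.29 to 0.12, limma adjusted p = 0.669). Gpr39 shares exon sequence with Lypd1 on the opposite strand in the same annotation, so its value may include reads of that gene.

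Avpr1b, the vasopressin receptor of pituitary corticotrophs and islets, was at 1.79, 1.75 and 1.80 FPKM in the WT libraries. In bKO it was at 1.19, 2.11 and 1.32 FPKM. The bKO group split around WT, with replicates 1 and 3 below every WT library and replicate 2 above all of them. The log2 difference was -0.23 (95% interval -0.58 to 0.11, limma adjusted p = 0.498). Without bKO replicate 2 it was -0.40 (limma adjusted p = 0.0865), without bKO replicate 1 it was -0.13 (0.889), and with bKO replicates 1 and 3 averaged it was -0.15 (limma adjusted p = 0.883). The value in bKO replicate 2 rested on about 322 fragments, with a counting interval of 1.89 to 2.36 FPKM, and that in bKO replicate 1 on about 141, with 1 to 1.4 FPKM.

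Ednra, the endothelin receptor of vascular smooth muscle and pericytes, was at 4.48, 3.33 and 3.16 FPKM in the WT libraries. The bKO libraries held 5.23, 4.41 and 5.19 FPKM. The groups overlapped, because WT replicate 1 lay just above bKO replicate 2. The means were 3.65 ± 0.72 FPKM in WT and 4.94 ± 0.46 in bKO (SD, n = 3 each), a ratio of 1.35. The log2 difference was 0.28 (SE 0.12), with an unadjusted p of 0.0504 and an adjusted p of 0.353 in limma. It lay between 0.20 and 0.39 over the other settings, with the smallest limma adjusted p, 0.127, without WT replicate 1, and it was 0.25 with bKO replicates 1 and 3 averaged (limma adjusted p = 0.794).

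All 7 smooth muscle and pericyte markers had rows and 0 were at 0 in any library. Their summed level was 69.4, 31.02 and 28.2 FPKM in the WT libraries against 70.7, 39.9 and 72.7 FPKM in the bKO libraries. WT replicate 1, which held the highest Ednra of its group, was thus also the WT library with the highest marker level, and bKO replicate 2 held the lowest of both in its group. Among these markers Myh11 was low, at 0.69, 0.45 and 0.32 FPKM in WT and 0.80, 0.37 and 0.68 FPKM in bKO. Pdgfrb was at 21.3, 12.3 and 11.4 FPKM in WT and 23.3, 18.5 and 23.4 FPKM in bKO. Cspg4 was at 4.42, 2.64 and 2.66 FPKM in WT and 4.93, 3.52 and 5.53 FPKM in bKO. The log2 difference was positive for 6 of the 7 markers and negative for 1, against 53% negative over all genes. The 7 stellate cell and fibroblast markers summed to 497, 231 and 232 FPKM in WT and 597, 349 and 588 FPKM in bKO. The part of these cells in the Ednra values was not tested. Ednra shares exon sequence with 4933431K23Rik on the opposite strand.

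Htr2b, a serotonin receptor known in mouse beta cells for its role in their expansion in pregnancy and also expressed by mesenchymal cells, varied widely between libraries. The WT libraries held 1.95, 0.53 and 0.86 FPKM, and the bKO libraries 1.31, 0.62 and 1.33 FPKM. Here WT replicate 1 was the highest of all libraries and replicate 2 the lowest of each group. The log2 difference was -0.05 (95% interval -0.64 to 0.53, limma adjusted p = 0.934), and its sign turned without WT replicate 1 (0.20), without bKO replicate 2 (0.10) and without quantile normalization (0.01). The 3 libraries above 1 FPKM, WT replicate 1 and bKO replicates 1 and 3, were the 3 with the highest summed smooth muscle and pericyte level. They were also the 3 highest for stellate cell and fibroblast markers, at 497, 597 and 588 FPKM. The same held for duct markers, at 1932, 2347 and 2325 FPKM. The cause of these patterns was not tested. The Htr2b values rested on about 27 to 85 fragments, the fewest of the 8 receptors with a single listed transcript other than Cckar in WT replicate 1. Htr2b overlaps exons of Psmd1, a proteasome subunit on the opposite strand at 47.0 to 59.5 FPKM, which was lowest in WT replicate 1.

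Cckar, the cholecystokinin receptor through which that gut hormone drives enzyme secretion by acinar cells, had the largest difference and the widest spread. The WT libraries held 0.31, 4.04 and 1.90 FPKM, and the bKO libraries 3.44, 3.40 and 3.14 FPKM. The bKO libraries were close to each other and lay between the WT values, the highest of which was above all 3. The log2 difference of 0.60 (95% interval -0.51 to 1.72) had a limma adjusted p of 0.576, and without WT replicate 1 it was 0.06 (limma adjusted p = 0.919). Without WT replicate 2 it was 1.07 and with a pseudocount of 0.1 it was 1.08. In WT replicate 1 Cckar rested on about 19 fragments, with a counting interval of 0.186 to 0.477 FPKM.

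All 13 acinar markers had rows and 0 were at 0 in any library, so acinar RNA was present in every islet library. Their summed level was 1323, 16634 and 19944 FPKM in the WT libraries against 26379, 11635 and 26032 FPKM in the bKO libraries. WT replicate 1 was the lowest in both Cckar and the acinar sum, while among the other 5 libraries the order of the 2 differed. Ptf1a, the transcription factor that defines acinar cells, was at 0.23, 4.95 and 2.72 FPKM in WT and at 4.50, 3.83 and 4.45 FPKM in bKO. Cckar divided by Ptf1a was 1.33, 0.817 and 0.698 in WT and 0.763, 0.888 and 0.705 in bKO. Ptf1a was singled out after its values were seen, and the part of acinar RNA in the Cckar difference was not tested.

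**Figure D3:**
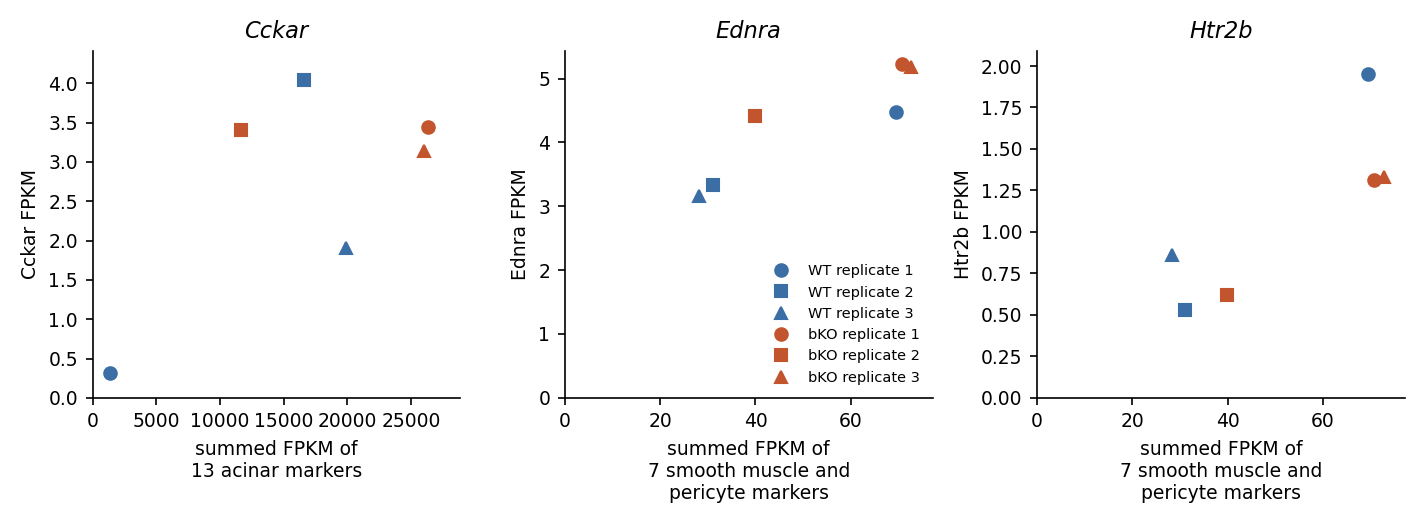
FPKM of Cckar against the summed FPKM of 13 acinar markers, and of Ednra and Htr2b against that of 7 smooth muscle and pericyte markers, with 1 point for each library (WT blue, bKO orange). WT replicate 1 is the lowest point for Cckar, and the 3 libraries with a marker sum of 69.4 to 72.7 FPKM hold the 3 highest Htr2b values.

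**Figure D4:**
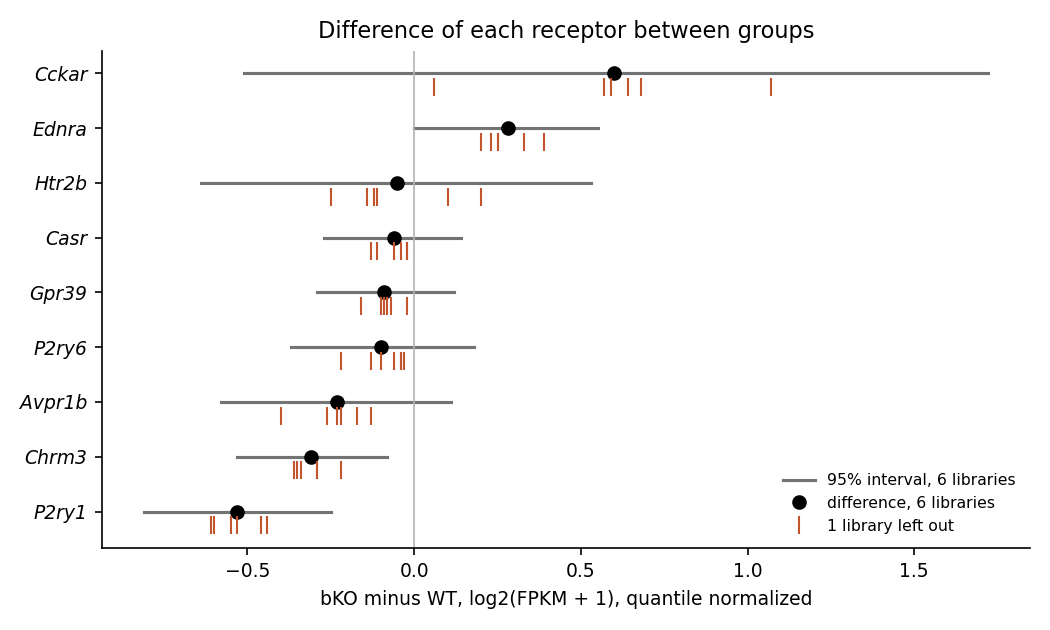
Difference of bKO minus WT in log2(FPKM + 1) for each receptor, with its 95% interval from all 6 libraries and orange ticks for the values with 1 library left out. The intervals of P2ry1 and Chrm3 lie below 0 before adjustment over all genes, and the ticks of Cckar spread from 0.06 to 1.07.

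Among 35 other receptors that can couple to Gq, 27 had a row and 25 were tested. None passed over all genes in limma. An unadjusted p below 0.05 was found for 4 of 25, 2 higher and 2 lower, near the 14.2% of all genes, and their median log2 difference was 0.02. Ffar2, a receptor for short-chain fatty acids, was at 20.7, 24.7 and 23.1 FPKM in the WT libraries against 17.6, 18.9 and 18.3 FPKM in the bKO libraries, without overlap (log2 difference -0.36, limma adjusted p = 0.113). F2r, the thrombin receptor, had means of 4.44 ± 1.34 FPKM in WT and 7.75 ± 1.11 in bKO (SD, n = 3 each; limma adjusted p = 0.221). Ednrb, the other endothelin receptor, averaged 18.7 ± 2.57 FPKM over WT and 23.5 ± 2.20 FPKM over bKO libraries (SD, n = 3 each; limma adjusted p = 0.371), so both endothelin receptors had a higher mean in bKO and neither passed. The endothelial markers were also higher in bKO, with sums of 156 to 159 FPKM against 108 to 122 FPKM in WT. The part of cell content in the Ednrb values was not tested. Oxtr, the oxytocin receptor and a relative of Avpr1b, had a log2 difference of -0.27 (limma adjusted p = 0.376).

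On the side of the ligands, 19 of 23 genes had a row, 18 were tested and 0 passed in limma; 1 of 18, Ache, had an unadjusted p below 0.05, against 14.2% of all genes, and the median log2 difference was -0.01. Ache, the esterase that breaks down acetylcholine and so ends the stimulus at Chrm3, was at 3.90, 4.21 and 3.73 FPKM in the WT libraries. In the bKO libraries it was at 5.62, 6.24 and 5.34 FPKM, every value above WT, with a log2 difference of 0.36 and a limma adjusted p of 0.139. Entpd1, an ectonucleotidase that degrades ATP and ADP outside cells, had means of 2.66 ± 0.32 FPKM in WT and 3.51 ± 0.33 in bKO (SD, n = 3 each; limma adjusted p = 0.4). Slc17a9, the vesicular nucleotide transporter, had a log2 difference of -0.18, and Ece1, which activates endothelins, one of 0.14 (limma adjusted p = 0.531 and 0.54).

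Downstream of the receptors, 18 of 18 genes of Gq transduction were tested and 0 passed in limma. An unadjusted p below 0.05 was found for 2 of 18, both lower, near the 14.2% of all genes, and the median log2 difference was -0.02. The protein kinase C genes Prkcb and Prkca differed by -0.51 and -0.30 on the log2 scale (limma adjusted p = 0.139 and 0.17). Prkcd, another kinase of this family, had one of 0.20, and Plcb4, a phospholipase C beta, one of -0.17 (limma adjusted p = 0.441 and 0.472). Among 14 genes of receptor desensitisation, 13 had a row and were tested and 0 passed in limma. Here 2 of 13, both lower, had an unadjusted p below 0.05, again near the 14.2% of all genes, and the median was 0.01. Rgs1, which speeds the switching off of G proteins, had a log2 difference of -0.53, Rgs2, which acts mainly on Gq, one of -0.27, and Arrb1, which encodes a beta arrestin, one of 0.39 (limma adjusted p = 0.243, 0.364 and 0.369). Adrbk2, a receptor kinase, had one of -0.17 (limma adjusted p = 0.441).

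**Figure D5:**
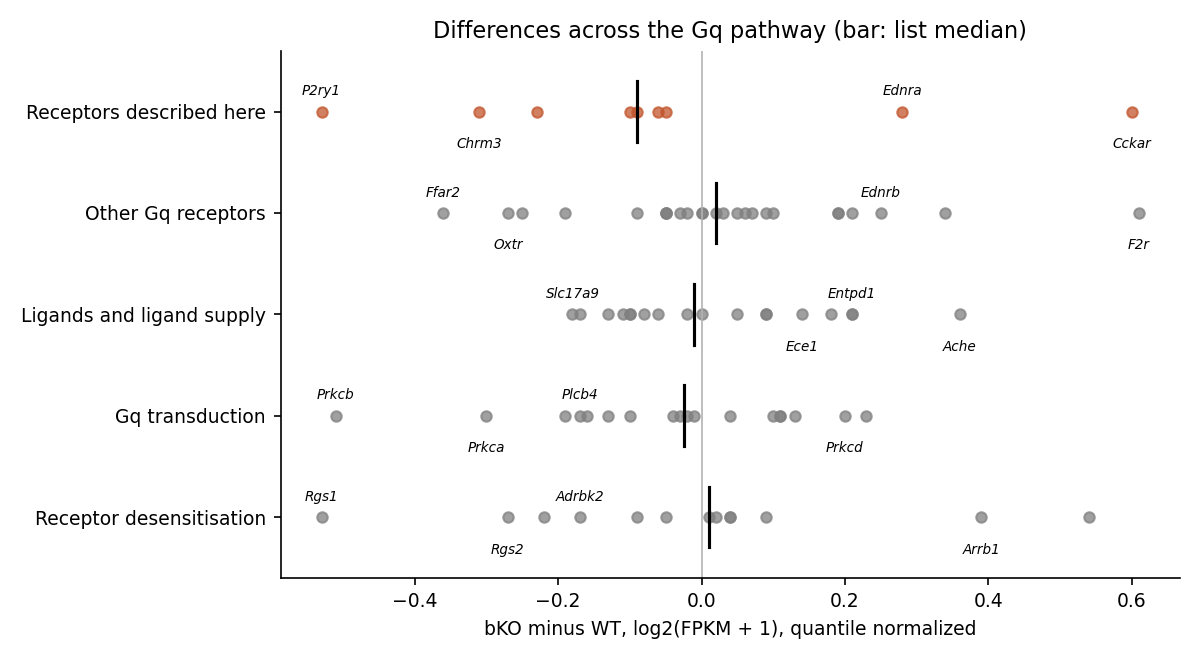
Difference of bKO minus WT in log2(FPKM + 1) for the 9 receptors (orange) and for tested genes of 4 lists of the Gq pathway (grey), with a bar at each median. The list medians lie between -0.09 and 0.02, and the labels mark the named genes of the 4 lists and P2ry1, Chrm3, Ednra and Cckar.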

How the data were processed

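Islet RNA of 3 WT and 3 bKO libraries, grouped by sample title, was analysed from the authors' deposited FPKM values. Per the design text, a service provider mapped trimmed reads to the mouse genome and ran Cufflinks on known transcripts. Per the submitters' processing notes, the genome build was mm9. That text also describes log transformation and quantile normalization, but the deposited FPKM are linear and not quantile normalized. In the table, 2 rows with no gene were left out, and 585 genes at 0 in any library, none of them a receptor described here, were not tested.

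Values were transformed as log2(FPKM + 1), quantile normalized and compared by limma 3.58.1 under R 4.3.3, using a moderated two-sided test with a mean-variance trend. P-values were Benjamini-Hochberg adjusted over 15962 genes (threshold 0.05). Means, SD and ratios are of deposited FPKM. The log2 scale with this pseudocount understates the change of low genes. On simulated data for this comparison over 15962 genes, 50 genes at each fold, the share recovered was 70% at a fold of 1.5, 96% at 2, 94% at 3 and 96% at 4. Of 186 calls 8 were false. Changed genes had a mean of at least 5 FPKM, so these shares do not apply to P2ry1, Ednra, Cckar, Avpr1b and Htr2b, which lay below it. The SDs were shuffled over all genes, and 186 calls were made where the real comparison gave 31. The shares may therefore not hold for Chrm3, Casr, Gpr39 and P2ry6 either. Correlated libraries were not simulated.

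Depth and fragments per gene are estimates from FPKM steps, with GENCODE transcript lengths and an assumed fragment length of 250 bases, and 59.8% to 68.6% of low values fell within 0.1 of a whole number. Counting intervals are 95% exact Poisson intervals and cover counting error only. Promoter windows were matched by symbol, 6 of the 9 receptors having one. The receptors, gene lists and alternatives were chosen with earlier results of these data known. All 10 receptors and Kcnj11 were to be named, and in each pathway list up to 4 genes with the smallest unadjusted p at a mean of at least 1 FPKM. Figures used Python 3.11.15 and matplotlib 3.10.9.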

Additional observations from a re-analysis of the deposited data

How the results depend on the processing

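The choices changed were the library set (leaving out each of the 6 in turn, or averaging bKO replicates 1 and 3), the scaling (none, or median of ratios), the filter (none, or a mean of at least 1 FPKM), the pseudocount (0.1), the variance trend (none) and a replicate block. In all 14 settings 0 of the 9 receptors and 0 genes of the 4 pathway lists were called, as with all libraries. Directions held for P2ry1, Chrm3, Avpr1b, Gpr39, P2ry6, Cckar and Ednra. Casr reversed to 0.01 without quantile normalization. Htr2b reversed to 0.01 there, and with 1 library left out it ranged from -0.25 to 0.20. Across all genes the 31 calls became 0 with the replicate block and 0 with bKO replicates 1 and 3 averaged, with 2343 and 1237 genes at an unadjusted p below 0.05, and ranged from 0 to 50 with 1 library left out. Without quantile normalization 19 genes were called higher and 20 lower in bKO (51.3% lower), in place of 10 and 21 (67.7%). Correlations of deviations between libraries of the same replicate number were -0.1951, 0.07422 and 0.303 for numbers 1, 2 and 3. Those between unlike numbers ran from -0.3705 to 0.3051. With so few libraries these values cannot show whether libraries were prepared in pairs. Exact tests planned for receptors at 0 in a library were not needed. The causes were not tested. Among the receptors with a fragment estimate, depth limits mainly Htr2b and Cckar in WT replicate 1. P2ry1 had no such estimate.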
